A study of Mus musculus with 9 samples.

Results

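Small intestinal organoids kept in tumoroid-titled conditioned medium were compared with organoids kept in organoid-titled conditioned medium. The members were the 6 organoid libraries among the 9 RNA-sequencing libraries of the series, chosen by their titles, with 3 libraries titled for tumoroid medium (T-cM-titled) and 3 titled for organoid medium (WT-cM-titled). Organoids were grown from wild-type (genotype WT) mice, 3 in all, and both groups spent 24 hr in a mix of 50% conditioned medium and concentrated organoid medium with EGF, Noggin and R-spondin1 (ENR), so no group without conditioned medium entered the comparison. The strain label reads C57BL/6, whereas the methods describe mice of mixed background. The other 3 libraries came from untreated tumoroids, which are organoids grown from intestinal tumours of Apc1638N/+ mice, and are used here for the level of a few genes and in the TPM filter that set which genes were tested. The treatment label of each organoid library names the medium opposite to its title. All directions here follow the titles, and every sign is reversed if the treatment label is the correct one. By the methods, tumoroids conditioned a medium without R-spondin1 and organoids a medium with it. The time of conditioning depended on density for tumoroids and was fixed for organoids. The origin of the medium, its composition and its conditioning time therefore cannot be told apart.

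Intestinal organoids hold the crypt stem cells, the Paneth, goblet, enteroendocrine and tuft cells, and the absorptive enterocytes of the epithelium, and no stroma. Wnt signals, raised by R-spondin, keep the stem cells dividing, and BMP signals oppose them. After injury the epithelium can pass through a state in which YAP and its TEAD partners act, stem cell genes are low and genes of the foetal gut are high. YAP and TEAD bind DNA at sites read as CATTCC, heat shock factors bind inverted GAA units, and Nrf2 binds antioxidant response elements in the control regions of detoxification genes.

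Between 16541635 and 25170966 reads were counted on genes per organoid library, 1.33% to 1.80% of them on mitochondrially encoded genes. All 6 libraries held the epithelial genes Epcam, Cdh1, Krt8 and Vil1, at 12997 to 86856 counts each. Fibroblast collagens (Col1a1, Col1a2, Col3a1) had 0 to 2 counts in any organoid library, and Dcn, Lum, Cd3e, Kdr, Cdh5 and Sox10 had 0. The fibroblast and immune genes with more reads were low in both groups, with Vim at 22 to 84 counts, Csf1r at 3 to 62, Cd68 at 6 to 22 and Ptprc at 0 to 16. Among markers of other cell types and gut regions, 3 passed the test described below. Tff1, a gastric mucus gene, was at 9, 59 and 26 counts in T-cM-titled and 5, 26 and 19 in WT-cM-titled organoids and was called higher (log2 fold change 1.07, edgeR adjusted p = 0.035). Car1, a colon gene, was at 1, 18 and 3 counts against 0, 1 and 1 and was also called higher (adjusted p = 0.029 in edgeR). S100b, a glial gene, was at 42, 19 and 29 counts against 46, 42 and 97 and fell (log2 fold change −0.84, edgeR adjusted p = 0.032). The part of such cells in the results was not tested. Within each pair both media had organoids of the same sex by Xist, Ddx3y and Eif2s3y, with pairs 1 and 2 male and pair 3 female.

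Of 16208 genes tested by edgeR's quasi-likelihood F test with replicate number as a block, 816 passed a Benjamini-Hochberg adjusted p of 0.05 as higher in T-cM-titled organoids (5.03% of genes) and 818 as lower (5.05%). A gene was called when its absolute log2 fold change was also above 1, which left 109 genes higher (0.673%) and 70 lower (0.432%). With the TPM filter over the 6 organoid libraries alone, 13759 genes were tested and 150 called. The median log2 fold change over all genes was 0. Below, a gene passed the test, and is said to have risen or fallen, at the adjusted p alone. Levels are in CPM, which are counts scaled by the normalised library size, and are given for replicates 1, 2 and 3 in that order. Differences within a pair are T-cM-titled minus WT-cM-titled on the log2 CPM scale with a prior count of 2. Standard errors were derived from the log2 fold change and its edgeR F statistic, and are not the spread of the 3 pair differences. With 3 mice, the result turned on single pairs. Without replicate 2, 1 gene was called, whereas 385 were called without replicate 1 and 94 without replicate 3, and without the block 0 genes were called (904 at an unadjusted p under 0.05, smallest adjusted p 0.6). No member of any gene list passed without replicate 2 (1557 genes were at an unadjusted p under 0.05).

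Ranbp3l (chromosome 15, 8967949 to 9067335, GRCm38), a nuclear export factor for SMAD proteins, had the largest change. Its CPM was 0.144, 26.3 and 25.0 in T-cM-titled organoids, and no read was counted in any WT-cM-titled library. The raw counts in T-cM-titled organoids were 3, 423 and 481, so the mean was at least 117-fold higher against a limit of 3 counts per WT-cM-titled library (adjusted p = 2.1e-16 in edgeR). Pairs 2 and 3 carried the change, and replicate 1 was at that limit. The TPM of Ranbp3l, the deposited level per gene length, was 0.05, 19.9 and 0.53 in tumoroids.

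Promoters of 4 genes are shown because the genes stand for separate results. Ajuba stands for the YAP targets, Hspa1b for the heat shock genes, and Ranbp3l and Reg1 for the smallest p in each direction. Each runs from 250 bases before to 50 bases after a transcription start (RefSeq, GRCm38.p6). Capitals mark CATTCC in Ajuba (chr14:54577612-54577911, minus strand) and GAANNTTC in Hspa1b (chr17:34959189-34959488, minus strand). The windows of Ranbp3l (chr15:8967699-8967998, plus strand) and Reg1 (chr6:78425733-78426032, plus strand) were searched for CATTCC on both strands and held none.
Ajuba: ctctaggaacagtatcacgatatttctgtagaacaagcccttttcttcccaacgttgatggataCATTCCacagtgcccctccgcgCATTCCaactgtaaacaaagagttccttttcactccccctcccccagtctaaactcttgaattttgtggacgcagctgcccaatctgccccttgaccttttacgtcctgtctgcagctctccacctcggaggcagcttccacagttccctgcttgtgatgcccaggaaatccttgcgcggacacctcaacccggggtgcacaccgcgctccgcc
Hspa1b: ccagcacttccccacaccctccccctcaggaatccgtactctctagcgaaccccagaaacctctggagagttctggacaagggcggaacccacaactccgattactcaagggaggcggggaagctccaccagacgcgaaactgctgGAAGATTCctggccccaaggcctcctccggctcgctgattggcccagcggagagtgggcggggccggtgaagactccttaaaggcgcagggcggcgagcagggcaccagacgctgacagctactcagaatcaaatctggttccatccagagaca
Ranbp3l: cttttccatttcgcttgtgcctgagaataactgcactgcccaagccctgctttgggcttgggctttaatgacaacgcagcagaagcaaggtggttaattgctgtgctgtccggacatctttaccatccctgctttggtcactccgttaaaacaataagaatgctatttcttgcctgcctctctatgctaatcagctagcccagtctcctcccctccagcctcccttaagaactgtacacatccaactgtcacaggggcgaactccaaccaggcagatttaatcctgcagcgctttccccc
Reg1: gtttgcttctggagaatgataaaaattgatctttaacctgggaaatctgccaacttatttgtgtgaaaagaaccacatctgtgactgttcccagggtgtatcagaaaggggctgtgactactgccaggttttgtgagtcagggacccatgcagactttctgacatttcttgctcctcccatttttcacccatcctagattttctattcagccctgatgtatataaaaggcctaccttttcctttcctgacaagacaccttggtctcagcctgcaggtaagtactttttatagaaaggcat
The Ajuba window held 2 matches to CATTCC, a motif present in 14.7% of all 32851 promoters of the table on either strand. Of the promoters found for genes called, 19 of 78 called higher and 13 of 52 called lower held it, against 12.2% of the 10610 promoters found for genes tested, as did 1 of 3 promoters of YAP targets that rose and 1 of 9 of foetal and regenerative markers that rose. The letters GAANNTTC or TTCNNGAA, of which Hspa1b held 1 match, were in 4 of 6 promoters of heat shock genes that rose, in 15.1% of all promoters and in 11.7% of those of genes tested. TGANNNNGC, the core of the antioxidant response element, was in 7 of 13 promoters of Nrf2 targets that rose, in 41.3% of all promoters and in 43.2% of those of genes tested. TGANTCA, the AP-1 site, was in 4 of 9 promoters of foetal and regenerative markers that rose, in 7.8% of all promoters and in 5.5% of those of genes tested. The window of S100a6, a member of this list, held none and is not printed. Over the genes called higher TGANTCA was in 5 of 78. A match here describes the letters of the window and not a bound site.

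Most of the other genes with the largest increase followed the pattern of Ranbp3l. Spp2, a secreted phosphoprotein that binds BMPs, was at 0.962, 42.8 and 50.5 CPM in T-cM-titled and 0.302, 0.604 and 0.722 CPM in WT-cM-titled organoids (log2 fold change 5.79, standard error 0.27, edgeR adjusted p = 4.5e-15). The groups did not overlap, but replicate 1 in T-cM-titled medium was within 1 CPM of the WT-cM-titled libraries. Tmem27 (collectrin), a partner of amino acid transporters, was at 0.24, 11 and 9.63 CPM against 0.101, 0.329 and 0.281, so that replicate 1 lay inside the range of the other group. Tumoroids had 1.79, 1.54 and 0.62 TPM of Spp2 and 0, 0.09 and 0 TPM of Tmem27, against 115.8 and 131.4 TPM of Spp2 and 19.1 and 16.1 TPM of Tmem27 in T-cM-titled replicates 2 and 3.

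Eno3, the muscle form of enolase, was at 21.3, 97.3 and 84.2 CPM in T-cM-titled and 8.71, 8.78 and 8.42 CPM in WT-cM-titled organoids (log2 fold change 2.76, standard error 0.22, edgeR adjusted p = 6.6e-10). WT-cM-titled levels were nearly equal, and every T-cM-titled library was above them. Abcc5, an efflux pump for cyclic nucleotides, was at 36.5, 113 and 123 CPM against 17.7, 16.6 and 21.1. Cnnm1, of a family of magnesium transport proteins, was at 15.3, 49.5 and 60.7 CPM against 6.90, 5.98 and 7.86. Their groups were also apart, with replicate 1 the lowest T-cM-titled library in each. Tnfsf15, the ligand TL1A, had a log2 fold change of 2.71, the alkaline phosphatase gene Alppl2 of 2.25, the kinesin gene Kif27 of 1.93 and the galactosyltransferase gene B3galt5 of 1.88. Another 3 gene models without an assigned function met the same conditions and are not named. Alppl2 and its neighbours Akp3 and Alpi are near-identical, and reads could be split between them. Akp3 was at 439, 1669 and 1228 CPM against 278, 384 and 382, and Alpi at 1861, 3480 and 3109 CPM against 1286, 1760 and 1863.

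**Figure D1:**
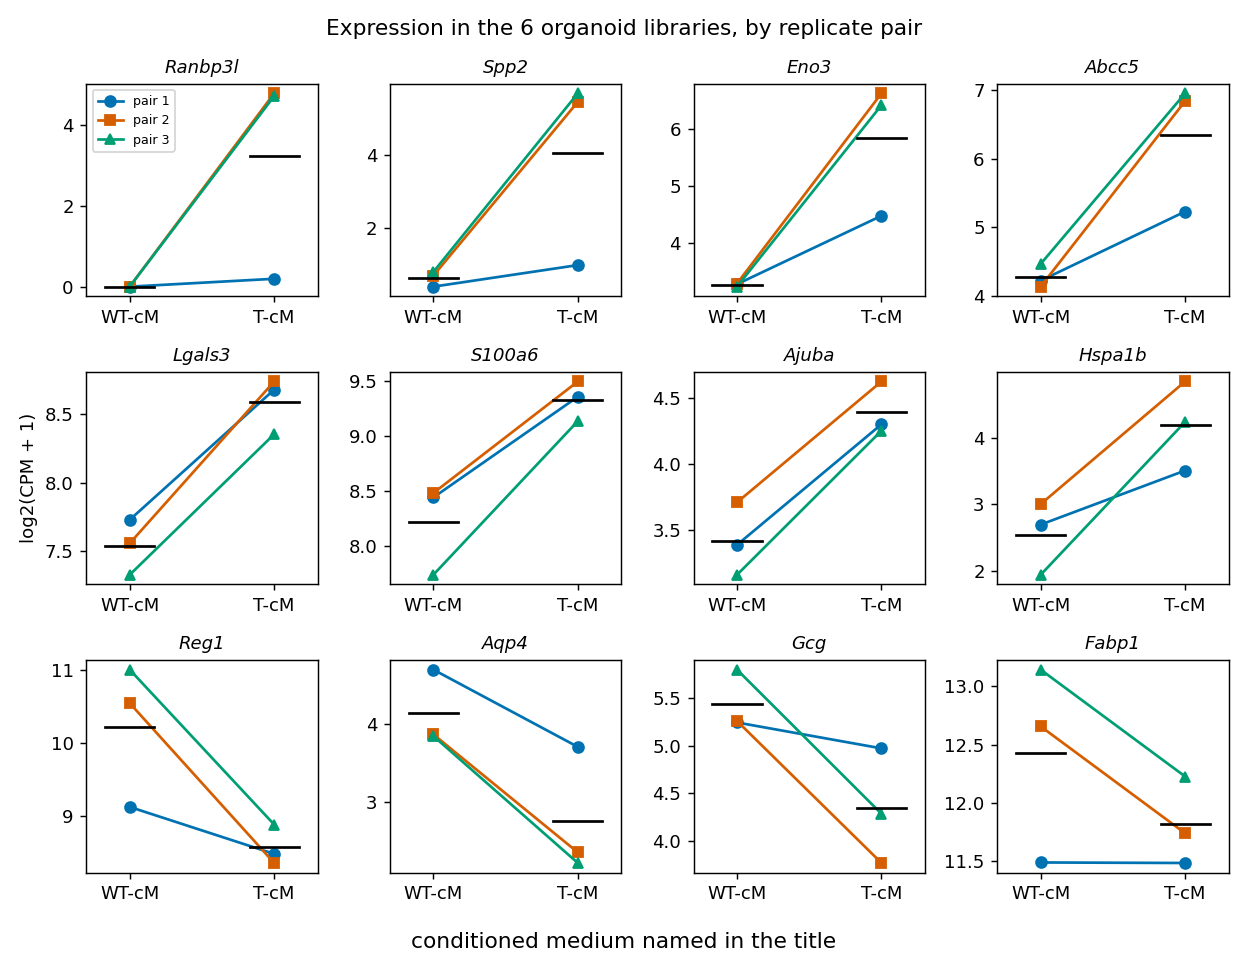
Level of 12 genes in each of the 6 organoid libraries as log2(CPM + 1), with lines joining the libraries of a replicate pair, black bars at group means and a separate vertical range in each panel. Ranbp3l and Spp2 rose in pairs 2 and 3 and little in pair 1, Lgals3, S100a6 and Ajuba rose in all 3 pairs, and Fabp1 was at 2867 and 2876 CPM in pair 1.

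The genes with the largest decrease were transporters, enzymes and secreted lectins of the epithelium. Reg1, a secreted lectin of the regenerating family, was at 357, 327 and 472 CPM in T-cM-titled and 558, 1496 and 2056 CPM in WT-cM-titled organoids (log2 fold change −1.67, standard error 0.16, edgeR adjusted p = 1.9e-08). T-cM-titled libraries were close to each other and all below the other group, whose replicate 1 was the lowest. Slc5a4a, a member of the sodium-glucose cotransporter family, was at 2.21, 1.49 and 0.781 CPM against 4.43, 8.40 and 5.98, also without overlap. Bst1, an ectoenzyme that acts on NAD, was at 2.07, 1.93 and 3.49 CPM against 2.47, 11.5 and 21.1, and in pair 1 differed by −0.24. The water channel gene Aqp4 fell in every pair, from 25.0, 13.6 and 13.4 CPM to 12.1, 4.10 and 3.64 CPM. Pla2g5 (a secreted phospholipase, log2 fold change −1.67), Sardh (sarcosine dehydrogenase, −1.52), Ces2b (a carboxylesterase, −1.30), Mfsd4a (−1.28) and the monocarboxylate transporter gene Slc16a6 (−1.20) were also named by size. Sardh, Mfsd4a and Slc16a6 overlapped between the groups although each fell in all 3 pairs. By smallest p, Slc13a2 (a citrate transporter, −1.14), Reg3g (an antimicrobial lectin, −0.81), Jaml (an adhesion molecule, −0.86) and Fbp1 (a gluconeogenic enzyme, −1) were also named.

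The size of the response differed between the pairs. The 109 genes called higher had median differences of 0.96, 1.58 and 1.59 in pairs 1, 2 and 3, and the smallest of the 3 differences was in pair 1 for 81 of them. The 70 genes called lower had medians of −0.62, −1.55 and −1.56, with the smallest in pair 1 for 56. For 57 and 45 of them, pair 1 was under 0.5 times the mean of pairs 2 and 3. These genes were selected by the same test, so the counts describe them and carry no test. Pair 1 differed by sex from pair 3 but not from pair 2, and whether the media of the pairs came from separate batches is not stated in the labels.

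**Figure D2:**
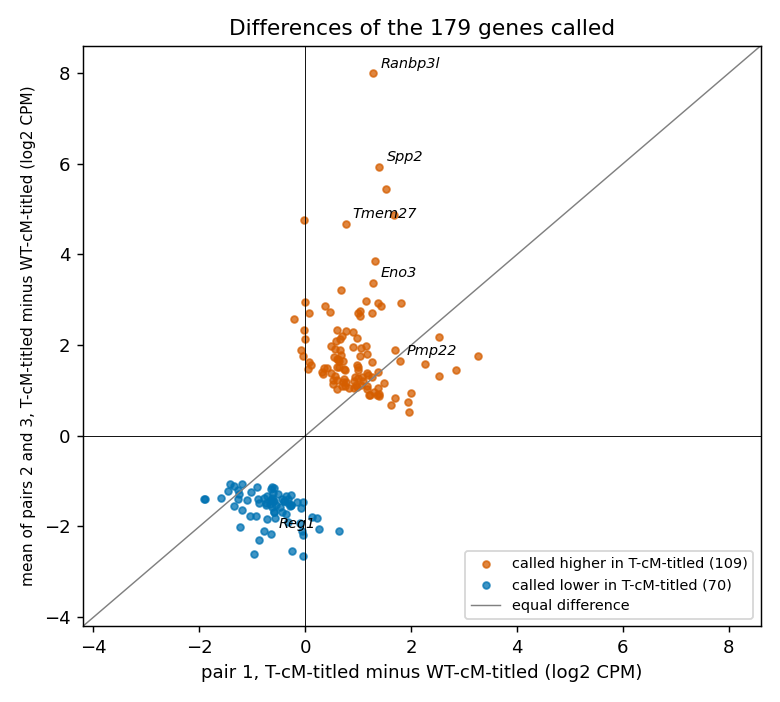
Difference between the media of the 179 genes called, in log2 CPM, in pair 1 (horizontal) and as the mean of pairs 2 and 3 (vertical), with a line at equal difference. Most points lie farther from 0 on the vertical than on the horizontal axis, among them Ranbp3l, Spp2 and Tmem27, while Pmp22 lies close to the line.

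Among the genes called higher, the difference in pair 1 was at least 0.8 times the mean of pairs 2 and 3 for 32 of 109, among them Lgals3 but not S100a6. Lgals3 (galectin-3, a secreted lectin that binds galactosides) was at 410, 427 and 326 CPM in T-cM-titled and 211, 187 and 159 CPM in WT-cM-titled organoids (log2 fold change 1.06, standard error 0.08, edgeR adjusted p = 1.4e-10). S100a6, a calcium-binding protein, was at 655, 721 and 562 CPM against 347, 357 and 213. Neither gene overlapped between the groups, and the differences within pairs were 0.96, 1.19 and 1.04 for Lgals3 and 0.92, 1.01 and 1.40 for S100a6. Ifit1bl2, of the interferon-induced IFIT family, differed by 1.05, 1.13 and 1.14 in the 3 pairs, although its baseline of 16.7 CPM in WT-cM-titled replicate 1 was below the 52.2 and 51.7 CPM of the others. Pmp22, a membrane protein of junctions and myelin chosen after its values were seen, differed by 1.78, 1.52 and 1.79.

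Lgals3 and S100a6 are 2 of the 29 foetal and regenerative markers, genes high in foetal intestine or in repairing epithelium. Of these, 13 rose and 0 fell, and their median log2 fold change was 0.48, against 5.03% of all genes rising and a median of 0. Besides Lgals3 and S100a6, they included Msln (mesothelin, log2 fold change 1.11), Il33 (an alarmin cytokine, 1.32), Sprr1a (a cornified envelope protein, 0.86), Ecm1 (0.83), Plaur (the urokinase receptor, 0.76), Clu (clusterin, 0.73), Krt7 (0.63), Anxa3 (0.56), S100a11 (0.45) and Cnn2 (0.32). Msln was at 89.9, 91 and 66.5 CPM against 27.8, 52.0 and 36.9, and Clu at 28.0, 8.89 and 7.08 CPM against 16.3, 5.38 and 4.49. Msln was separated by group, whereas Clu was highest in both libraries of pair 1 and the groups overlapped. Over the whole list the median difference was 0.70, 0.37 and 0.08 in pairs 1, 2 and 3, the reverse order to the genes called, and 27, 20 and 17 members were positive.

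Ly6a (Sca-1), a surface marker of the foetal-like state, was at 10.2, 3.60 and 4.94 CPM in T-cM-titled and 2.42, 4.28 and 3.93 CPM in WT-cM-titled organoids. Pair 1 differed by 2.03, against −0.24 and 0.32 in pairs 2 and 3, and the gene missed the threshold (log2 fold change 0.74, standard error 0.25, edgeR adjusted p = 0.056). Sprr2a1, Ly6d and Il1rn also differed upwards in pair 1, by 1.12, 0.97 and 0.60, and downwards in pairs 2 and 3, and none passed. In tumoroids Ly6a was at 1568, 765 and 3020 TPM, against 5.75 to 23.9 TPM in organoids.

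Of 23 YAP targets tested, 3 rose and 1 fell (Birc5, also a mitosis gene), with a median of 0.08, against 5.03% of all genes rising and 5.05% falling. Ajuba, a LIM protein that restrains the Hippo kinases, was at 18.7, 23.7 and 18.1 CPM against 9.46, 12.1 and 7.94 (log2 fold change 1.04, standard error 0.12, edgeR adjusted p = 3.9e-07). Myof, a membrane repair protein, had a log2 fold change of 0.76 and Amotl1, an angiomotin that binds YAP, of 1.14. The groups did not overlap for Ajuba or Myof, and differences were similar in the 3 pairs. Among 21 genes of the pathway itself, Tead4 and Wwc1 (a Hippo activator, 0.26) rose and 0 fell. Tead4, a DNA-binding partner of YAP, was at 4.14, 5.59 and 3.85 CPM against 1.76, 2.20 and 1.44 (log2 fold change 1.33, standard error 0.21, edgeR adjusted p = 5.2e-05), with differences of 1.19, 1.31 and 1.35 in the pairs. Yap1 itself was at 105, 89.8 and 87.0 CPM against 111, 98.1 and 82.7 (log2 fold change −0.05, adjusted p = 0.82). The classical targets Ctgf and Cyr61 were low and did not pass, at 0.311 to 0.818 and 1.04 to 2.07 CPM in T-cM-titled and 0.0549 to 0.361 and 1.21 to 1.76 CPM in WT-cM-titled organoids (adjusted p = 0.27 and 0.94 in edgeR).

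Thbs1, which encodes thrombospondin-1, was at 3.46, 1.99 and 3.33 CPM in T-cM-titled and 2.87, 2.52 and 3.13 CPM in WT-cM-titled organoids (log2 fold change 0.04, standard error 0.21, edgeR adjusted p = 0.97). The groups overlapped. Its TPM was 39.8, 46.9 and 256.2 in tumoroids and 0.88 to 1.61 in the organoid libraries. Of 12 thrombospondins and receptors tested, Lrp1, a receptor for several ligands, rose (0.35) and the proteoglycan gene Sdc1 fell (−0.26). These counts are near the shares over all genes, 5.03% rising and 5.05% falling. Of 25 integrins, laminins and collagens, 5 rose and 0 fell, among them the laminin chains Lamc1 (0.58), Lama5 (0.67) and Lamb2 (0.98) and the basement membrane proteoglycan agrin (Agrn, 0.32).

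Nrf2 targets, which serve glutathione synthesis, quinone reduction and conjugation, rose in 15 of 34 and fell in 0. Their median was 0.24, against 5.03% of all genes rising, 5.05% falling and a median of 0. Gclc, the rate-limiting subunit of glutathione synthesis, was at 487, 661 and 557 CPM against 293, 236 and 202 (log2 fold change 1.23, standard error 0.10, edgeR adjusted p = 7.6e-10). Nqo1, a quinone reductase, was at 468, 528 and 454 CPM against 342, 293 and 242. Both had all T-cM-titled libraries above all WT-cM-titled ones, with the smallest difference in pair 1. Hmox1, which degrades haem, rose by 0.76, and Fth1, Ugdh, G6pdx, Ephx1, Gstm1, Gsta2, Pgd, Osgin1, Me1, Abcc2, Slc7a11 and Abcc4 rose by 0.28 to 0.57. The classical targets Txnrd1, Srxn1 and Gclm, at 0.02, −0.03 and 0.14, did not pass (edgeR adjusted p = 0.93, 0.91 and 0.29). Without replicate 3, 6 of the list rose.

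Among 17 heat shock genes, 6 rose and 2 fell, against 5.03% of all genes rising and 5.05% falling. Hspa1b, an inducible HSP70, was at 10.4, 27.8 and 17.9 CPM against 5.49, 7.03 and 2.85 (log2 fold change 1.85, standard error 0.18, edgeR adjusted p = 4.9e-08), and the groups did not overlap. Hspa1a, its near-identical neighbour with which reads could be shared, rose by 1.80. Hspa4l, Bag3, Dnajb4 and Dnaja1 rose by 0.28 to 0.89, while the mitochondrial chaperonins Hspd1 and Hspe1 fell (−0.34 and −0.30). Hsp90aa1, Hspa8 and Hsf1 were between −0.07 and −0.02 and did not pass. Of 22 unfolded protein response genes 4 rose (Dnajb9, Atf6, Syvn1 and Hyou1, by 0.25 to 0.37) and 0 fell. Of 32 ATF4 and amino acid response genes 4 rose, led by the glycine transporter gene Slc6a9 at 1.22 and the folate enzyme gene Aldh1l2 at 0.91, and Pck2 fell by 0.50. Of 25 p53 targets 4 rose (Plk2, Bax, Tnfrsf10b and Mdm2, by 0.28 to 0.84) and 0 fell.

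**Figure D3:**
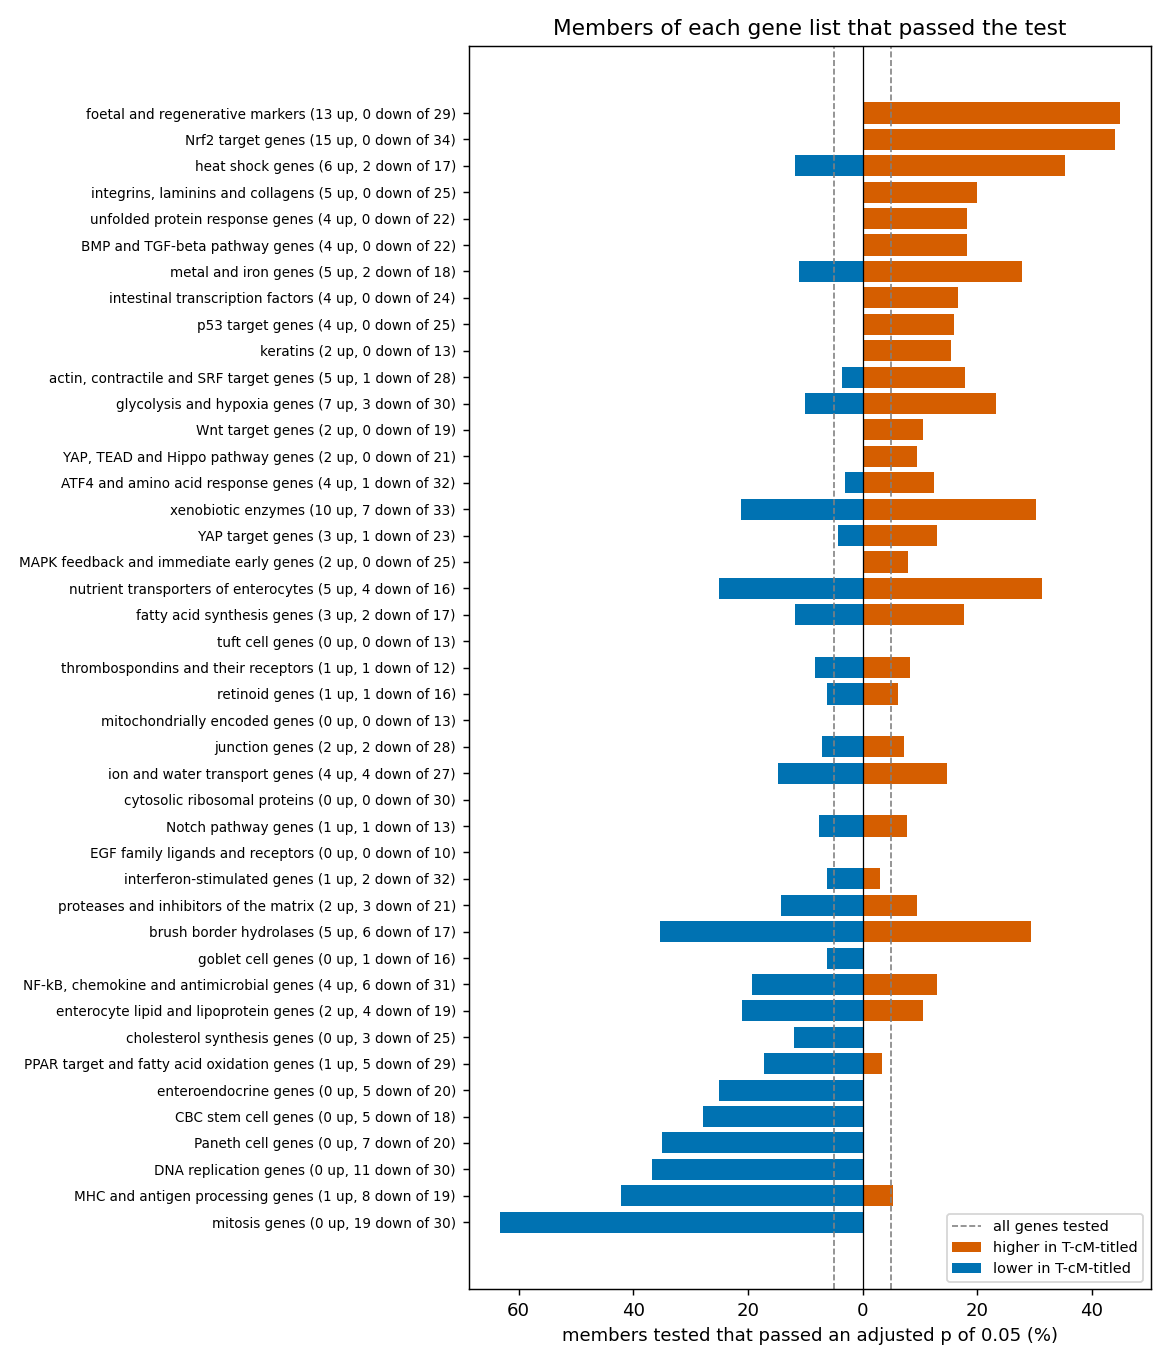
Share of the tested members of each gene list, without the lists of cell type markers and of osmolyte genes, that passed an adjusted p of 0.05, to the right where higher and to the left where lower in T-cM-titled organoids, with dashed lines at 5.03% and 5.05% for all genes tested. Of the lists plotted, foetal and regenerative markers and Nrf2 targets reached farthest to the right and mitosis genes farthest to the left, while tuft cell, EGF family, ribosomal and mitochondrially encoded genes had no member that passed.

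Genes of dividing cells were lower. Of 30 mitosis genes 19 fell and 0 rose (median log2 fold change −0.35), and of 30 DNA replication genes 11 fell and 0 rose (median −0.27). Of all genes tested 5.05% fell and 5.03% rose. Ube2c, which drives exit from mitosis, was at 98.4, 43.1 and 45.7 CPM in T-cM-titled and 115, 80.0 and 63.9 CPM in WT-cM-titled organoids (log2 fold change −0.52, standard error 0.10, edgeR adjusted p = 0.00057). Cdk1, the mitotic kinase, fell by 0.47, and Top2a (−0.37) and Mki67 (−0.30), which encodes the Ki-67 antigen, also fell. In replication, the thymidylate synthase gene Tyms fell by 0.70, the DNA methylation factor gene Uhrf1 (−0.52) and the helicase subunit gene Mcm5 (−0.35) also fell. Levels were highest in pair 1 in both media, so that the groups overlapped for Ube2c, Cdk1, Top2a, Mki67, Tyms and Uhrf1, and the decrease was seen within pairs. In all 3 pairs 27 of 30 mitosis genes and 22 of 30 replication genes were lower, against 3515 of all 16208 genes. The count of mitosis genes that fell was 4 by limma voom, 12 by DESeq2 and 12 without replicate 3, and that of replication genes was 4, 6 and 5. Dividing cells in smaller number and less RNA of these genes per cell cannot be told apart in whole-organoid libraries.

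Stem cell genes of the crypt base were lower or did not pass. Of 18, 5 fell (Aqp4, Smoc2, Cdca7, Ascl2 and Msi1) and 0 rose, with a median of −0.18, while 4 fell and 1 rose without replicate 1 and 3 fell without replicate 3, by limma voom and by DESeq2. Smoc2, a secreted matricellular protein, was at 52.2, 19.8 and 27.2 CPM against 78.4, 29.4 and 43.2 (log2 fold change −0.61, standard error 0.09, edgeR adjusted p = 4.5e-05), lower in each pair by 0.56 to 0.67. Ascl2, the stem cell transcription factor, fell by 0.66. Lgr5, the R-spondin receptor, was at 0.77, 0.124 and 0.677 CPM against 1.61, 0.329 and 1.00, lower in all 3 pairs but at few counts and not past the threshold (adjusted p = 0.19 in edgeR). Olfm4 was at 92.1, 17.5 and 8.64 CPM against 144, 15.2 and 11.2, so that pair 1 was far above the others in both media. Of 19 Wnt targets, Sp5 (0.95) and Bambi (0.92, a BMP pseudoreceptor) rose and 0 fell, with a median of −0.11. For both lists the share over all genes was 5.03% rising and 5.05% falling.

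Secretory cell genes fell in part, against 5.05% of all genes falling and 5.03% rising. Of 20 Paneth cell genes 7 fell (Mptx2, Ang4, Defa17, Defa3, Itln1, Mmp7 and Defa29, −0.26 to −0.89) and 0 rose, while the lysozyme gene Lyz1 was at 911, 1005 and 1228 CPM against 966, 1026 and 1294 and did not pass. The Defa genes are near-identical copies and their counts are uncertain. Of 20 enteroendocrine genes 5 fell and 0 rose. Gcg, which encodes proglucagon, was at 30.4, 12.6 and 18.5 CPM against 36.9, 37.3 and 54.6 (log2 fold change −1.11, standard error 0.15, edgeR adjusted p = 1e-05). Gip, Chga, Cck and Chgb, other hormones and granins, fell (−0.30 to −0.60). Gcg and Gip were separated by group, and the decreases were smallest in pair 1. Of 16 goblet cell genes Spink4 fell (−0.35), a count near the share over all genes. Of 13 tuft cell genes 0 passed in edgeR, limma voom or DESeq2 (3 at an unadjusted p under 0.05). Without replicate 3, 2 Paneth and 3 enteroendocrine genes fell.

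Enterocyte genes moved both ways, against 5.03% of all genes rising and 5.05% falling. Of 17 brush border hydrolases 5 rose, among them Alpi (0.75) and the peptidase gene Naaladl1 (0.98), and 6 fell, among them Mep1a (−0.86), lactase (Lct, −0.48) and Dpp4 (−0.37). Of 16 nutrient transporters 5 rose, led by the neutral amino acid transporter gene Slc6a19 at 0.87, and 4 fell, led by Slc23a1 (ascorbate, −0.83), Slc2a2 (GLUT2, −0.67) and Slc15a1 (peptides, −0.62). Of 19 lipid and lipoprotein genes Apob and Dgat1 rose, by 0.39 and 0.34, and Apoc3, Fabp1, Fabp2 and Mogat2 fell (−0.75, −0.61, −0.56 and −0.25). Fabp1, a fatty acid-binding protein, was at 2867, 3420 and 4791 CPM in T-cM-titled and 2876, 6451 and 9035 CPM in WT-cM-titled organoids. It was nearly equal in pair 1 and lower in pairs 2 and 3. Naaladl1 was at 32.2, 400 and 363 CPM against 23.6, 176 and 161, so that pair 1 had low levels in both media. Krt20, a marker of mature cells, was at 745, 778 and 519 CPM against 595, 833 and 670 (adjusted p = 0.83 in edgeR).

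Of 29 PPAR targets and fatty acid oxidation genes 5 fell and Vnn1 rose, against 5.05% of all genes falling and 5.03% rising. Of 17 fatty acid synthesis genes 3 rose and 2 fell (Scd1, −0.62, and Gpam, −0.47), and of 25 cholesterol synthesis genes 3 fell and 0 rose. Of 30 glycolysis and hypoxia genes 7 rose, among them Pkm (0.40) and Ldha (0.29), and 3 fell (Ndrg1, Pdk1 and Car9, −0.35 to −0.59). The metallothionein genes Mt1 and Mt2 fell (−0.54 and −0.45), and 5 of 18 metal and iron genes rose, among them the transferrin receptor gene Tfrc (0.53). Of 33 xenobiotic enzymes 10 rose and 7 fell. The risers included Cyp1a1 (0.81) and Ugt2b36 (0.98), and 4 of the fallers were carboxylesterase genes (Ces2c, Ces1d, Ces2e and Ces2a), with the Cyp2c and Ces families open to shared reads.

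Immune genes of the epithelium moved both ways. Of 19 MHC and antigen processing genes 8 fell and Tapbp rose (0.33), against 5.05% of all genes falling and 5.03% rising. Cd74, the class II invariant chain, was at 7.94, 5.84 and 6.25 CPM against 12.8, 11 and 11.8 (log2 fold change −0.84, standard error 0.14, edgeR adjusted p = 9e-05), without overlap. The peptide transporter gene Tap1 and the immunoproteasome gene Psmb9 fell (−0.60 and −0.71), but in pair 1 they differed by 0.21 and 0.05. The number of MHC genes that fell was 1 by limma voom, 3 by DESeq2 and 1 without replicate 3. Of 31 NF-kB, chemokine and antimicrobial genes 6 fell, namely Reg3g, Reg3a, Reg3b, Pigr, Ccl28 and Duox2 (−0.46 to −1.18), and 4 rose, namely Cxcl16, Nfkbia, Nos2 and Il33. The Reg3 genes are close copies. Of the immune cell markers, Ptprc was at 6, 12 and 16 counts in T-cM-titled and 0, 8 and 9 in WT-cM-titled organoids and Csf1r at 12, 21 and 62 against 3, 20 and 46. Cd68 was at 6, 13 and 8 counts against 12, 10 and 22 and Lyz2 at 1, 7 and 2 against 1, 10 and 7, so the markers did not move one way, and their part in the result was not tested.

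Interferon-stimulated genes changed direction between the pairs. Of 32 tested, 29 were higher in the T-cM-titled library in pair 1, and 6 and 2 in pairs 2 and 3, with medians of 0.59, −0.57 and −0.67. Isg15, a ubiquitin-like modifier, differed by 1.44, −0.76 and −1.78, and Rtp4 by 2.03, −0.93 and −1.02. Over all 3 pairs Irf1 rose (0.29) and Ifit3 and Ifitm3 fell (−1.27 and −0.80), and the other 29 did not pass. These counts are near the shares over all genes, 5.03% rising and 5.05% falling. The difference between the pairs has 1 value on one side and was not tested.

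**Figure D4:**
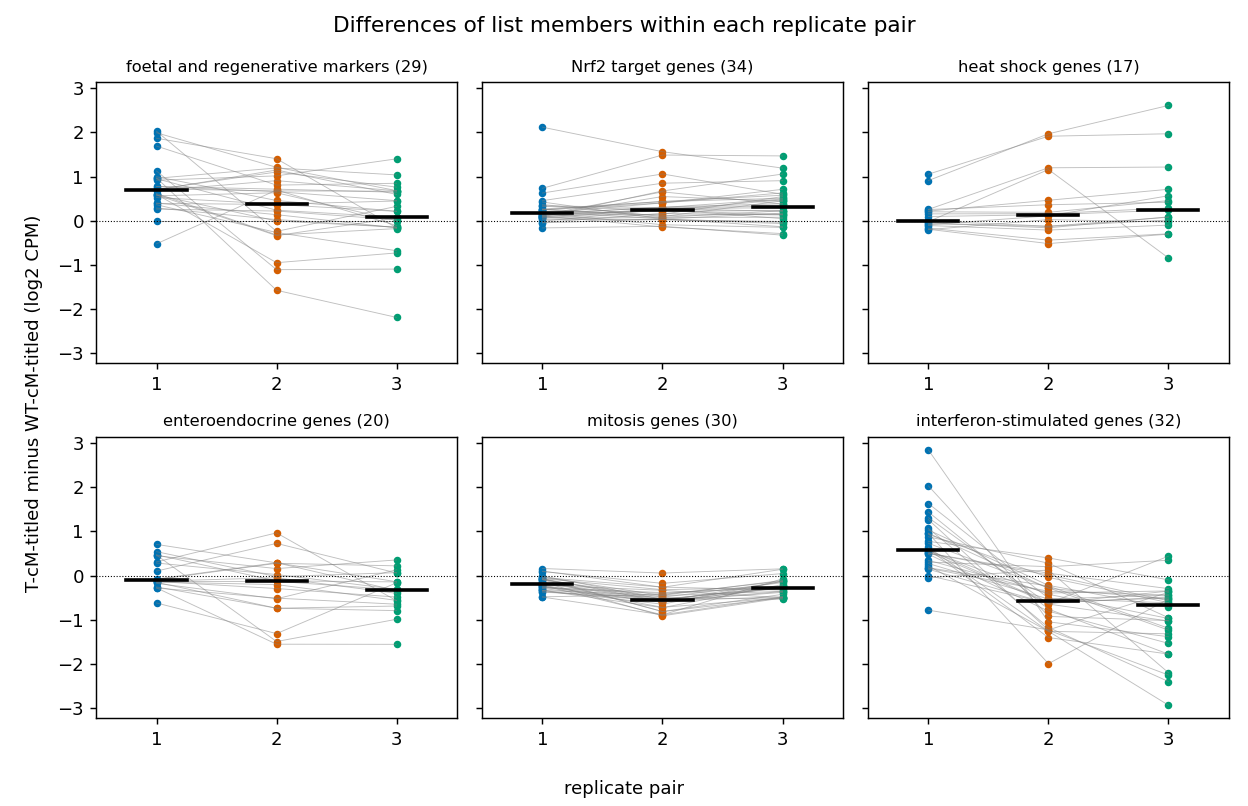
Difference between the media in log2 CPM (vertical) within each replicate pair (horizontal) for the tested members of 6 gene lists, with a grey line for each gene and a black bar at each median. Medians fell from 0.70 to 0.08 in foetal and regenerative markers, stayed below 0 in mitosis genes and changed sign from 0.59 to −0.57 and −0.67 in interferon-stimulated genes.

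Signalling lists had 0 to 4 members that rose each, against 5.03% of all genes rising and 5.05% falling. Of 10 EGF family ligands and receptors 0 passed in edgeR, limma voom or DESeq2 (2 at an unadjusted p under 0.05), while 3 fell without replicate 1. Of 25 MAPK feedback and immediate early genes Dusp6 (a phosphatase of ERK, 0.67) and Fosl1 (an AP-1 subunit, 1.11) rose. Of 22 BMP and TGF-beta genes Bmp8b (1.05), Smad7 (0.60), Skil (0.33) and Bambi rose. Of 13 Notch genes the ligand gene Dll1 rose (0.75) and Dtx4 fell (−0.43). Of 24 intestinal transcription factors Maf (0.67), Vdr (0.37), Onecut2 (0.36) and Elf3 (0.26) rose and 0 fell. Of 13 keratins Krt23 (1.08) and Krt7 rose.

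In genes of cell shape and transport, Lcp1 (L-plastin, 0.81), Pfn1, Flna and Cnn2 were among those that rose of 28 actin and contractile genes, and Myl9 fell, from 0.0503, 0.384 and 3.33 CPM in WT-cM-titled to 0, 0.186 and 0.468 CPM in T-cM-titled organoids, where 1 library had most of the reads. Of 28 junction genes, those that rose included Dsp (desmoplakin, 0.42), and the pore-forming claudin gene Cldn2 (−0.51) and Cldn18 fell. Of 21 matrix proteases and inhibitors Plaur and Ctsl (0.60) rose and Mmp7, Mmp15 and Adam8 fell. Of 27 ion and water transport genes 4 rose, led by the chloride channel gene Ano1 (1.01), and 4 fell, led by Aqp1 (−0.70). Of 16 retinoid genes Rdh10 rose and Rdh7 fell, near the shares over all genes. Those shares, for each list of this paragraph, were 5.03% rising and 5.05% falling. Of 30 cytosolic ribosomal protein genes and 13 mitochondrially encoded genes 0 passed in edgeR, limma voom or DESeq2 (5 and 0 at an unadjusted p under 0.05), with medians of −0.10 and 0.02. All 30 ribosomal protein genes had a negative log2 fold change and 24 were lower in all 3 pairs.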

How the data were processed

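Poly(A) RNA was sequenced from stranded libraries of 6 organoid and 3 tumoroid samples. The authors aligned reads to mm10 with STAR and deposited raw counts, not normalised, and TPM, which the authors scaled by gene length and library. The counting tool and its strand setting are not given in the sources used here, so overlapping antisense genes cannot be told apart. The paper describes protein-coding genes, but the deposited counts held 50600 genes of all classes.

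Groups followed the titles. Genes were tested where TPM reached 1 in any of the 9 libraries (16208, of which 414 had no count in organoids). In R 4.3.3, edgeR 4.0.16 (TMM, quasi-likelihood F test in its form before edgeR 4) was fitted to the organoid counts with replicate number as a block. The design names 3 mice, and sex-linked genes matched within pairs. Deviations from group means correlated at 0.56, 0.351 and 0.561 between same-numbered libraries and at −0.46 to −0.051 between others, so the numbers pair the samples. P values rest on the spread between 3 pairs, which edgeR moderates with the spread of all genes tested. The fit was also run on simulated counts with planted changes equal in every pair, which cannot show how it behaves where pairs differ. At 3 counts a gene had 0.119 to 0.181 CPM, a limit for counting error only. Positions come from Gencode M21 (GRCm38).

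Lists, members and the naming rule were chosen with earlier results of these data known, and lists carry no set test. The rule took the 10 largest called changes and 8 smallest p each way, alike in 3 pairs and averaging 100 counts or more where higher, list members by p, genes the paper names and sex-linked genes. Alternatives used limma 3.58.1, DESeq2 1.42.0, other factors and filters, and each replicate left out. A few genes that the rule or lists named are not reported here.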

Additional observations from a re-analysis of the deposited data

How the results depend on the processing

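The 179 genes called (109 higher, 70 lower) and the 233 list members that passed were 148 to 218 (90 to 129 and 57 to 89) and 181 to 257 with RLE or upper-quartile factors, without the TPM filter, with it over the 6 organoid libraries, with filterByExpr and with the quasi-likelihood method of edgeR 4. Limma voom with the replicate block called 118, 40 of them lower, with 117 list members, and 112 of its genes were among the 179. DESeq2 with the replicate block called 93 (63 higher, 30 lower), 92 of them among the 179. Without the fold change threshold 1634 passed, 816 higher and 818 lower. Without the replicate block 0 were called, 0 higher and 0 lower, with 0 list members, and 904 genes were at an unadjusted p under 0.05. Limma on log2(TPM + 1) with the block also called 0, with 0 list members and 2690 genes at an unadjusted p under 0.05. Leaving out 1 replicate pair in turn gave 1 to 385 genes called, 1 to 169 higher and 0 to 216 lower, and 0 to 329 list members, the lowest without replicate 2 and the highest without replicate 1. The causes were not tested. Of 264 genes named by rule or list that passed, 257 to 264 were tested in each alternative, and none of those tested changed direction. The genes were selected by the main fit on the same libraries, so this is no independent check. They kept an adjusted p under 0.05 in 256 without replicate 1, 141 without replicate 3 and 1 without replicate 2, in 142 by voom and in 183 of 257 by DESeq2. Low counts limit Lgr5 and Ctgf.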

Other observations

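A group of 8 genes that serve cells in salty surroundings was chosen after their values were seen, for a response weak in pair 1. Of these, 7 rose, among them Hspa1b and Hspa4l of the heat shock list, and the medians were 0.21, 0.87 and 0.99 in pairs 1, 2 and 3. Because of how the group was chosen, its count and medians describe these genes and are no test. Slc5a3, the myo-inositol transporter gene, was at 6.64, 20.8 and 16 CPM in T-cM-titled and 7.05, 6.04 and 3.85 CPM in WT-cM-titled organoids (log2 fold change 1.28, standard error 0.22, edgeR adjusted p = 0.00023). Pair 1 did not differ upwards and pairs 2 and 3 did. Slc6a6, the taurine transporter gene, was at 626, 1030 and 1024 CPM against 540, 620 and 562. Slc38a2, an amino acid transporter gene, was at 203, 351 and 330 CPM against 166, 175 and 152. Both were apart by group, by 0.61 and 0.80 on the log2 scale. Nfat5, the transcription factor of the hypertonic response, rose by 0.52, the aldose reductase gene Akr1b3 by 0.42 and the chaperone gene Hspa4l by 0.89. The betaine transporter gene Slc6a12 had no count in any organoid library. Osmolarity of the media was not measured in these files.

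Some genes outside the naming rule, also chosen after their values were seen, had the same shape. Igfbp5, a secreted binding protein of insulin-like growth factors, was at 0.0962, 9.01 and 7.75 CPM against 0.101, 0.22 and 0.201 (log2 fold change 4.92), and differed by −0.03 in pair 1. The thyroid hormone deiodinase gene Dio1 was at 22.3, 108 and 107 CPM against 13, 21.2 and 21.9, and Rcan1, a calcineurin inhibitor, at 28.3, 149 and 72.9 CPM against 18.8, 24.7 and 24.1. In each, T-cM-titled replicate 1 was the lowest of its group. The sulfite oxidase gene Suox was instead even, at 24.7, 37.7 and 21.9 CPM against 13, 18.7 and 10.2.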
